A study of Mus musculus with 6 samples.

Results

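The mitochondrial ribosomal protein genes, here every gene of the count table whose symbol starts with *Mrpl* or *Mrps* and a number (pseudogene names left out), comprised 77 of 13809 genes. Of these, 48 carried an *Mrpl* name, for the large subunit, and 29 an *Mrps* name, for the small subunit. They were followed in RNA-seq of mouse hearts at embryonic day 18.5, with 3 wild-type (WT) and 3 *Pkm1*-knockout (KO) libraries made after removal of ribosomal RNA. The tissue is heart by its labels and ventricle by the paper's text. KO embryos, as the paper uses the term, were homozygous for a germline CRISPR/Cas9 deletion in *Pkm*. It lies in the exon that is particular to the PKM1 isoform of pyruvate kinase. The deletion was made in BDF1 (C57BL/6J and DBA/2 hybrid) zygotes, so the exon was disrupted in every cell and not in cardiomyocytes alone. WT embryos lacked the deletion. The sources used here do not give the number of embryos or founder lines behind a library.

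Mitochondria translate a small set of respiratory chain subunits, encoded by their own DNA, on ribosomes of their own. The RNAs of these ribosomes are mitochondrial, whereas the proteins are all nuclear-encoded, made in the cytosol and imported. Some of the proteins have bacterial counterparts and others are found only in mitochondria. Heart muscle, which depends on oxidative phosphorylation, holds many mitochondria, and inherited defects of several of these proteins cause infantile cardiomyopathy.

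Libraries held 15567624 to 19875546 counts. *Pkm* stood at 1294, 1296 and 1366 counts scaled to library size (CPM) in WT and at 547, 530 and 549 CPM in KO, and the groups did not overlap. *Xist* lay at 4.80 to 5.79 CPM in WT and 2237 to 2332 CPM in KO, and 4 Y-linked genes were at 0 counts in every KO library, so sex and genotype cannot be told apart. No member lies on X or Y. Of 10 cardiomyocyte markers, 9 fell and 1 rose in KO, with a summed level of 133262 to 137130 CPM in WT and 125326 to 126705 CPM in KO. The sum of 4 atrial markers, of which 3 rose, went from 584 to 592 CPM in WT to 997 to 1021 CPM in KO. Of 5 epicardial markers 3 rose (summed level 70.8 to 73.2 CPM in WT, 86.9 to 92.5 CPM in KO). Of 8 fibroblast markers 4 fell (3946 to 3992 CPM, 3677 to 3746 CPM), as did 3 of 6 smooth muscle and pericyte markers (463 to 473 CPM, 425 to 436 CPM) and 3 of 3 liver markers (23 to 28.8 CPM, 9.93 to 10.7 CPM). Of 8 endothelial markers 3 fell and 2 rose, of 3 erythroid markers 1 fell and 1 rose, and of 6 immune markers 1 fell. The part of these differences in the results below was not tested.

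The family as a whole was nearly level between the genotypes. All 77 members passed the filter on low counts, with 212 to 2384 counts in any library. Their summed level was 2576, 2665 and 2757 CPM in the WT libraries and 2662, 2635 and 2608 CPM in the KO libraries. The KO values lay within the WT range. In bulk tissue, fewer cells of a type and less RNA per cell cannot be told apart. Log2 fold changes of KO against WT ranged from -0.25 for *Mrps21* to 0.16 for *Mrpl49*, with 37 members lower and 40 higher. Their median was 0.0066, beside 0.0017 over all 13804 genes tested.

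By edgeR's quasi-likelihood test at a Benjamini-Hochberg adjusted p under 0.05 over all genes, 4 members fell and 0 rose. That is 5.19% of members, beside 30.3% of all genes called in either direction, 15.7% lower and 14.6% higher. At p under 0.05 before adjustment, 7 members were lower and 3 were higher, where all genes gave 20.8% and 20%. DESeq2 called 3 lower and 0 higher, edgeR's exact test 5 and 2, and limma's voom 4 and 0. The WT and KO libraries of 11 members (14.3%) did not overlap, 6 lower and 5 higher in KO, beside 42.4% of all genes.

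The small number of calls came with narrow intervals. The median standard error of a member's log2 fold change was 0.068, ranging from 0.0459 to 0.11, and that of all genes was 0.0751. For 72 of 77 members the whole 95% interval lay within 0.32 of zero on the log2 scale, as it did for 7253 of 13804 genes. The exceptions were *Mrpl16*, *Mrpl17*, *Mrpl23*, *Mrps12* and *Mrps21*. The median absolute log2 fold change was 0.0569 for the members and 0.131 for all genes, and the interquartile ranges were 0.117 and 0.265. The members' median WT level of 31.8 CPM was above the 22.6 CPM of all genes.

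**Figure D1:**
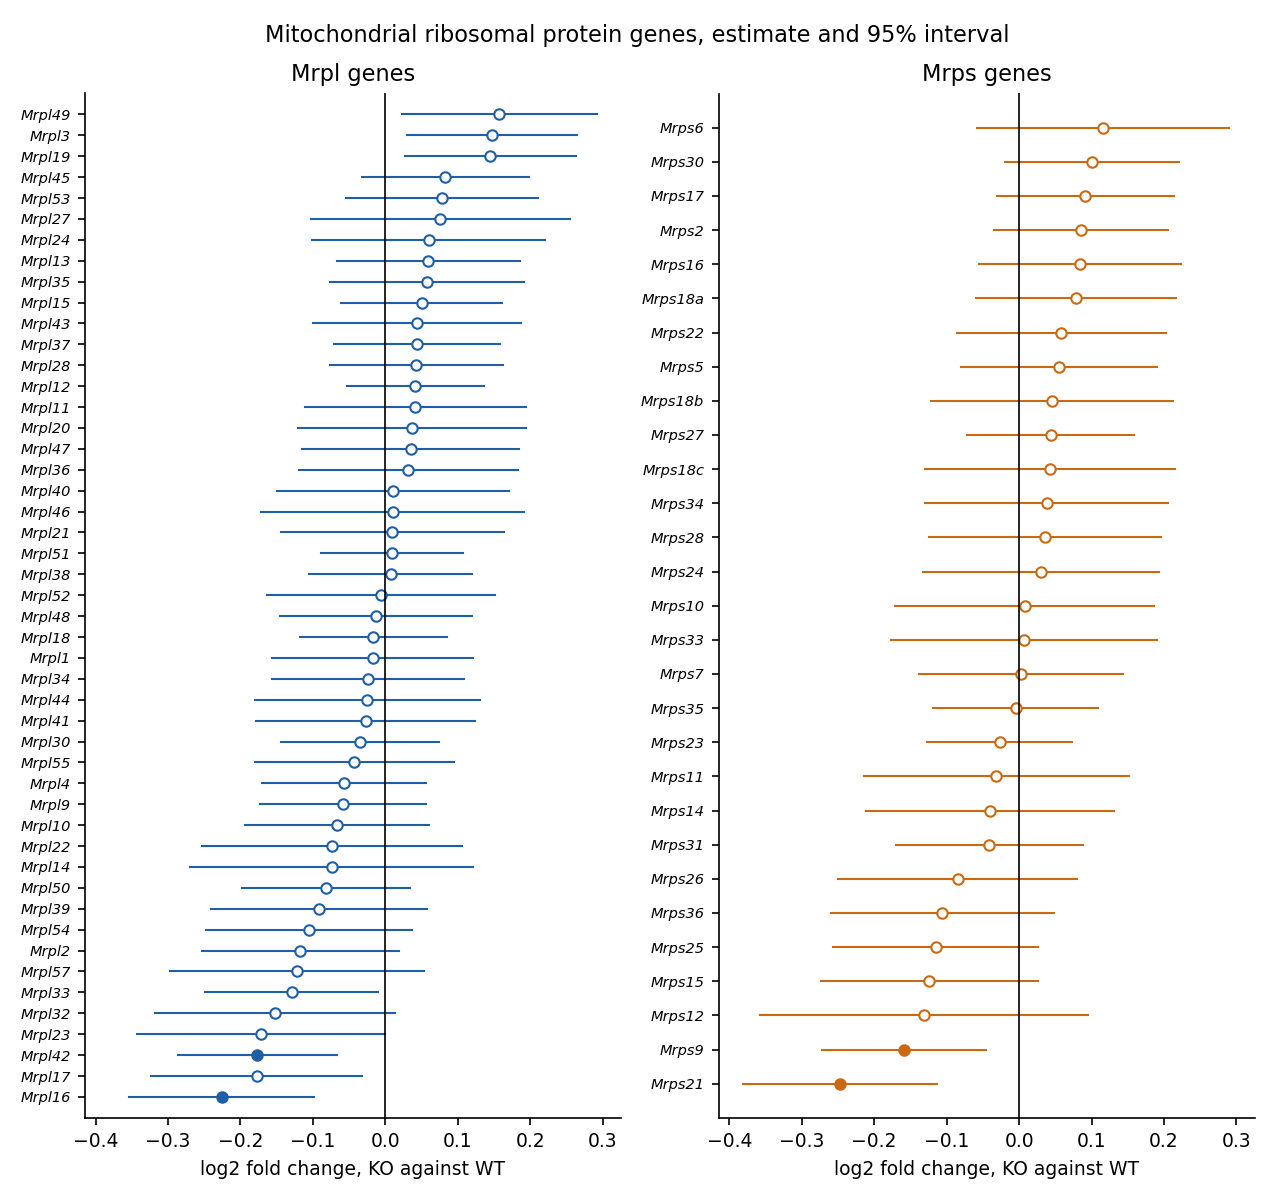
Log2 fold change of KO against WT (x axis) for each of the 48 *Mrpl* and 29 *Mrps* genes (y axis), with 95% intervals derived from edgeR's test as lines. Filled points mark the 4 genes with an adjusted p under 0.05, all on the negative side, and the estimates run from -0.25 to 0.16.

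The 4 genes that fell belong to both subunits. *Mrps21*, on chromosome 3 from 95862634 to 95871519 (minus strand, GRCm38), encodes a small subunit protein with a bacterial counterpart. It stood at 41.9, 38.6 and 47.2 CPM in WT and at 35.2, 36.1 and 35.9 CPM in KO. Every KO library lay below every WT library. The means were 42.6 ± 4.37 and 35.7 ± 0.468 CPM (SD, n = 3), a log2 fold change of -0.25 (SE 0.0649, adjusted p = 0.00479 by edgeR's quasi-likelihood test).

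*Mrpl16*, on chromosome 19 from 11770391 to 11774960 (plus strand), encodes a large subunit protein near the catalytic centre. Its levels were 35.7, 37.0 and 40.1 CPM in WT and 30.7, 33.3 and 32.4 CPM in KO, again without overlap. The log2 fold change was -0.23 (SE 0.0622, adjusted p = 0.00693), and without KO a the adjusted p was 0.0517.

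*Mrpl42*, on chromosome 10 from 95480805 to 95501940 (minus strand), encodes a large subunit protein found only in mitochondrial ribosomes. Its WT libraries gave 116, 122 and 141 CPM and its KO libraries 118, 110 and 106 CPM. Here the groups overlapped, since KO a lay above WT a. The log2 fold change was -0.18 (SE 0.0531, adjusted p = 0.0129), with an adjusted p of up to 0.107 when 1 library was left out (KO c).

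*Mrps9*, on chromosome 1 from 42851233 to 42905683 (plus strand), encodes a small subunit protein that reaches towards the tRNA in the decoding region. It gave 58.4, 60 and 67.1 CPM in WT and 53.4, 57.7 and 55.0 CPM in KO, without overlap and with the highest KO library close to the lowest WT library. The log2 fold change was -0.16 (SE 0.055, adjusted p = 0.0297), and without KO a the adjusted p was 0.142. None of the 4 genes has exons that overlap another annotated gene.

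Members near the threshold lay on both sides. *Mrpl3*, a large subunit protein with a bacterial counterpart whose gene is mutated in an inherited cardiomyopathy, gave 57.1, 59.5 and 49.6 CPM in the WT and 63, 59.6 and 61.9 CPM in the KO libraries (log2 fold change 0.15, adjusted p = 0.0521). *Mrpl19* (0.15, adjusted p = 0.0579) and *Mrpl49* (0.16, adjusted p = 0.0714) were on the same side. *Mrpl17* (-0.18, adjusted p = 0.0585) and *Mrpl33* (-0.13, adjusted p = 0.0938) were on the other. For all 5 the libraries of the genotypes did not overlap.

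**Figure D2:**
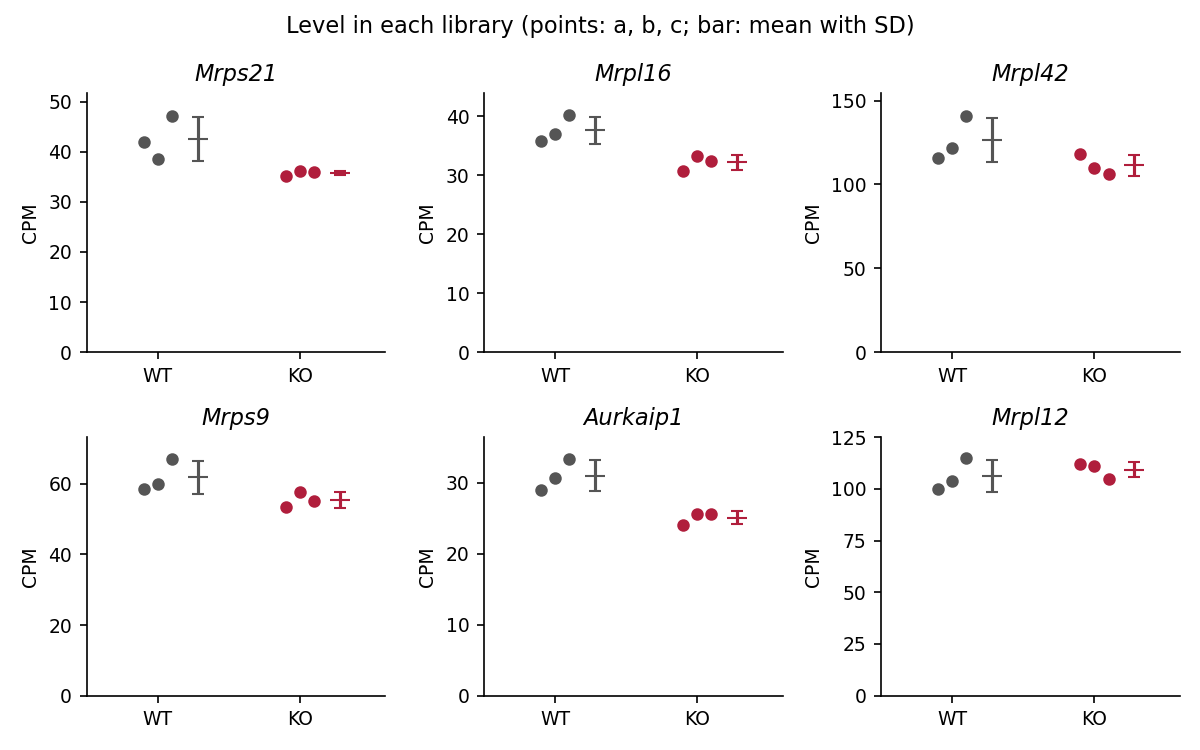
Level in CPM (y axis, from 0) in the 3 WT and 3 KO libraries (points) for the 4 members that fell, for *Aurkaip1*, a ribosomal protein gene outside the naming pattern, and for *Mrpl12*. Horizontal ticks with bars give the mean and SD. The groups separate for *Mrps21*, *Mrpl16*, *Mrps9* and *Aurkaip1* and overlap for *Mrpl42* and *Mrpl12*.

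By role, the 4 calls fell in 3 groups, read beside the 15.7% of all genes called lower. Of 30 large subunit genes with a bacterial counterpart, 1 fell (3.33%, median log2 fold change -0.02), and of 20 large subunit genes particular to mitochondria, 1 fell (5%, median 0.0082). Of 16 small subunit genes with a bacterial counterpart, 2 fell (12.5%, median 0.02), and of 10 small subunit genes particular to mitochondria, 0 were called by edgeR's quasi-likelihood test and 0 had p under 0.05 before adjustment. None rose in any of these groups. Among the proteins around the exit of the polypeptide tunnel, where new chains leave the ribosome, 0 of 9 were called (median -0.07). At p under 0.05 before adjustment 2 of these 9 were lower, where 20.8% of all genes were. The 5 genes of the stalk that recruits translation factors had a median of 0.04 and the 8 genes of the central protuberance a median of 0.0087, with 0 called in either.

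Genes with roles of their own gave small, uncalled differences. *Mrpl12*, a stalk protein that also binds the mitochondrial RNA polymerase, gave 100, 104 and 115 CPM in the WT and 112, 111 and 105 CPM in the KO libraries (0.04, 95% interval -0.05 to 0.14). *Mrps36*, named as a small subunit gene but a component of the 2-oxoglutarate dehydrogenase complex, had a log2 fold change of -0.11 (adjusted p = 0.302). The large subunit peptidyl-tRNA hydrolase *Mrpl58* was listed under its older symbol *Ict1*, outside the naming pattern, with 31.7 ± 1.79 CPM in the WT and 29.4 ± 0.89 CPM in the KO libraries (-0.11, adjusted p = 0.214).

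The 3 genes of the S18 group encode proteins with different places in the ribosome. *Mrps18a* sits in the large subunit despite its name (27.8 ± 2.09 CPM in WT and 29.3 ± 0.749 CPM in KO). *Mrps18b* (17.5 ± 0.753 and 18.0 ± 1.32 CPM) and *Mrps18c* (17, 16.7 and 14.8 CPM in WT, 15.9, 16.7 and 17.6 CPM in KO) belong to the small subunit. *Mrps30*, also a large subunit protein, gave 35.3 ± 0.482 CPM in the WT and 37.9 ± 1.58 CPM in the KO libraries, without overlap (0.10, adjusted p = 0.197). *Mrpl44*, *Mrps22* and *Mrps34*, all mutated in inherited mitochondrial disease, had log2 fold changes of -0.02, 0.06 and 0.04, with adjusted p of 0.837, 0.573 and 0.76.

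WT RNA levels per length differed widely between members. Per kilobase of merged exons, the large subunit genes were led by *Mrpl12* (69.5 ± 4.90 CPM per kb), *Mrpl34* (61.8 ± 4.94), *Mrpl54* (50.5 ± 6.23), *Mrpl18* (48.8 ± 1.38) and *Mrpl53* (37.8 ± 2.60). The small subunit genes were led by *Mrps21* (57.6 ± 5.91 CPM per kb), *Mrps23* (38.3 ± 0.743), *Mrps28* (25 ± 2.05), *Mrps27* (24.1 ± 1.06) and *Mrps15* (20.3 ± 2.43). *Mrpl12* and *Mrpl34* differed by less than the sum of their SDs, as did *Mrpl54* and *Mrpl18*. At the other end stood *Mrpl17*, *Mrpl48* and *Mrpl23* (3.07, 4.26 and 4.35 CPM per kb) and *Mrps10*, *Mrps26* and *Mrps25* (2.38, 4.77 and 4.84 CPM per kb). The median was 12.8 CPM per kb, or 17.9 with the longest annotated transcript as the length, and *Mrps21* then ranked first at 87.2 CPM per kb. By that length the same 5 large subunit genes led. Among the *Mrps* genes, *Mrps28* went from rank 3 to 8, *Mrps27* from 4 to 6 and *Mrps36* from 6 to 3. *Mrpl48* went from rank 47 to 41 of the *Mrpl* genes.

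The members' median exonic length, merged over annotated transcripts, was 2255 bases, beside 4456 for all genes. Lengths ranged up to 8631 bases (*Mrps35*). Of the 77 members, 28 were among the 1372 shortest genes (up to 1693 bases). Their levels moved with the library. The median centred log2 level of the members was -0.04, 0.0075 and 0.06 in WT a, b and c, and that of the 1372 shortest genes was -0.02, 0.01 and 0.05. In KO a, b and c the members gave 0.0054, 0.0045 and -0.03 and the shortest genes 0.005, -0.009 and -0.02. WT c was the highest of the 6 libraries for 30 of 77 members. Without WT c, *Mrps21*, *Mrpl16* and *Mrpl33* were called lower and *Mrpl19* and *Mrps5* higher. With a per-library correction for gene length, the 4 calls stayed and *Mrpl17* was added. *Rn45s*, which encodes cytosolic ribosomal RNA, made up 2.21% to 2.48% of the WT and 2.70% to 2.79% of the KO counts. With that gene left out of the scaling, the same 4 members were called and none of the 77 changed sign.

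Other groups of abundant genes with a low median exonic length were set beside the members. Of 82 cytosolic ribosomal protein genes, 11 fell and 1 rose (median log2 fold change -0.04), and of 44 complex I genes with an *Nduf* name, 9 fell and 1 rose (median -0.03). Called shares were thus 5.19% for the members, 14.6% for the cytosolic ribosomal proteins and 22.7% for complex I, beside 30.3% of all genes. The groups were measured with unlike precision. In the same order, median WT levels were 31.8, 204 and 110 CPM and median standard errors 0.068, 0.0394 and 0.0457. Median absolute log2 fold changes were 0.0569, 0.0533 and 0.0709. The difference between these shares was not tested.

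**Figure D3:**
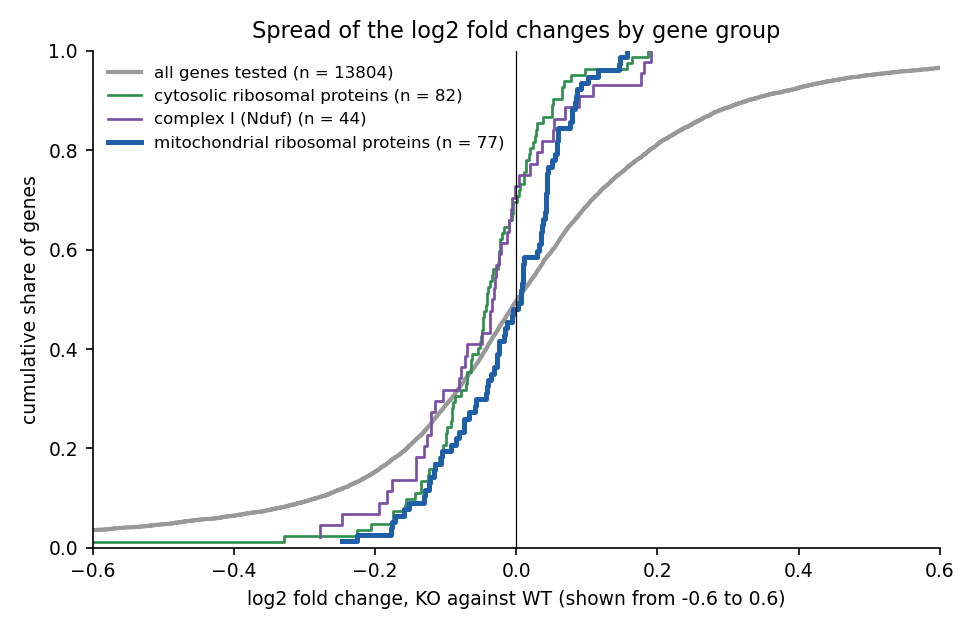
Cumulative share of genes (y axis) by log2 fold change of KO against WT (x axis, -0.6 to 0.6) for the 77 members, 82 cytosolic ribosomal protein genes, 44 complex I genes and all 13804 genes tested. The members' curve crosses zero near its middle and is steeper than that of all genes, with interquartile ranges of 0.117 and 0.265.

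Apart from *Ict1*, given above, mitochondrial ribosomal proteins with names outside the pattern gave 1 call in each direction among 5 genes. That is 20% each way, beside 15.7% of all genes lower and 14.6% higher. *Aurkaip1*, a small subunit protein, fell from 29.0, 30.7 and 33.3 CPM in WT to 24.1, 25.6 and 25.6 CPM in KO, without overlap (-0.30, SE 0.0678, adjusted p = 0.00116). *Ptcd3*, a small subunit protein with RNA-binding repeats, rose from 97.6, 99.9 and 89.4 CPM to 103, 102 and 109 CPM (0.13, SE 0.0449, adjusted p = 0.0331), also without overlap. *Dap3*, *Chchd1* and *Gadd45gip1* had log2 fold changes of 0.04, -0.06 and -0.0030 and were not called.

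Genes that build and modify the mitochondrial ribosome were called in 1 direction, upwards. Of 30 assembly and ribosomal RNA modification genes measured, 9 rose and 0 fell by edgeR's quasi-likelihood test, with 0 lower at p under 0.05 before adjustment and 0 lower by each other tool. The 9 are 30% of the list, beside 14.6% of all genes that rose, and the list's median was 0.07. *Mrm1*, which methylates the large ribosomal RNA, stood at 13, 13.8 and 14.4 CPM in WT and 22, 20.4 and 19.2 CPM in KO (0.58, SE 0.0836, adjusted p = 5.9e-06). *Rpusd4*, a pseudouridine synthase acting on the same RNA, stood at 7.24, 9.03 and 8.41 CPM in WT and 11.1, 12.9 and 11.8 CPM in KO (0.52, SE 0.108, adjusted p = 0.000541). In both the groups were well apart.

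The endoribonuclease gene *Ybey* (0.47), the small subunit assembly factor *Mettl17* (0.31), the GTPase gene *Mtg2* (0.28) and *Mterf3* (0.24), which takes part in large subunit assembly, also rose, as did *Trub2* (0.23), *Fastkd2* (0.18) and the protease subunit *Afg3l2* (0.10). Of these 9, *Mrm1*, *Rpusd4* and *Ybey* were called under every one of 15 alternatives. *Fastkd2* and *Afg3l2* were called under 9. With DESeq2, 6 of the 49 genes of the assembly and translation factor lists together rose, against 10 (20.4%), and without KO a, 5 did. Over all genes, 2011 rose (14.6%), while 1362 did with DESeq2 and 1547 without KO a.

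Genes that work with the ribosome were called higher in smaller shares than the 14.6% of all genes, while their medians were near that of the assembly list. Of 19 translation factor genes, 1 rose, *Pdf*, which removes the formyl group from new chains, from 19.9 ± 1.38 to 24.5 ± 1.26 CPM (0.29, adjusted p = 0.00356), or 5.26% of a list with a median of 0.07. The elongation factor genes *Tufm* and *Gfm1* gave -0.01 and 0.02 (95% intervals -0.10 to 0.07 and -0.05 to 0.09). Of 19 mitochondrial aminoacyl-tRNA synthetase genes, *Hars2* (0.23) and *Rars2* (0.22) rose and none fell (10.5%, median 0.07). At p under 0.05 before adjustment, 7 were higher and 1, *Kars*, was lower, where all genes gave 20% and 20.8%. Of 17 genes of mitochondrial transcription and RNA processing, 1 rose, the mitochondrial RNA polymerase *Polrmt* (0.24, adjusted p = 0.00852), or 5.88% of a list with a median of 0.07.

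**Figure D4:**
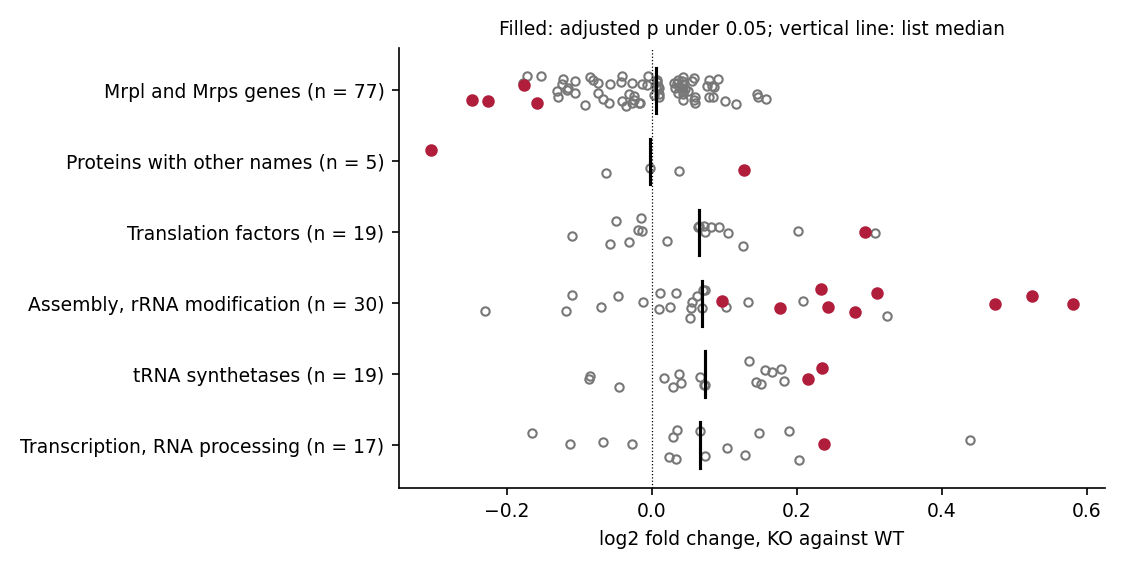
Log2 fold change of KO against WT (x axis) for the 77 members and for the measured genes of 5 lists of the same pathway (rows, with the number of genes). Filled points have an adjusted p under 0.05 and vertical lines are list medians. The 9 assembly and ribosomal RNA modification genes that rose reach 0.58, beyond the range of the members.

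A list of 21 genes held regulators of nuclear genes for mitochondria, with 4 mitochondrial chaperones and proteases (*Hspd1*, *Hspe1*, *Clpp* and *Lonp1*) that respond to mitochondrial stress. Of these 21, 3 fell (14.3%, beside 15.7% of all genes) and 6 rose (28.6%, beside 14.6%). *Myc*, a growth regulator, fell from 54.3 ± 2.46 to 23.3 ± 0.937 CPM (-1.22), *Atf4*, which drives the stress response to mitochondrial defects, from 104.6 ± 7.21 to 75.8 ± 4.58 CPM (-0.46), and the coactivator *Ppargc1a* from 338.2 ± 2.72 to 282.3 ± 2.73 CPM (-0.26). *Fos*, like *Myc* an early response gene, stood at 49.1 to 50.5 CPM in WT and 2.12 to 4.04 CPM in KO, and the relation between them was not tested. The nuclear receptor *Esrra* (0.21), *Gabpb2* (0.26), *Nfya* (0.27), *Nfyc* (0.22), *Sp1* (0.12) and the chaperone *Hspd1* (0.13) rose. For *Nfya*, the paper reports unaltered RNA by qPCR in KO hearts and a lower level of the NFYa protein. The reason for this difference was not tested. *Nrf1*, *Gabpa* and *Yy1*, which encode factors known to bind promoters of such genes, had log2 fold changes of 0.03, -0.07 and 0.01 and were not called.

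Promoters were read for these factors' motif letters because the study's question concerned NFYa, which binds CCAAT. RefSeq start sites (GRCm38.p6) were given for 68 of 77 members, and a window of 300 bases, 250 before the start and 50 from it on, was searched on both strands. CCAAT was found in 39.7% of members, beside 42.4% of the genes tested and 41.1% of all genes in the promoter table. CCAAT has 5 letters and the other motifs 6 to 10, and a shorter word is met more often by chance. Matches by chance were not told apart from others. The Sp box, GGGCGG, was found in 50% of members, 67.5% of genes tested and 38.2% of all. For the NRF1 letters, GCGCA followed by any base and then GCGC, the shares were 19.1%, 11% and 5.19%. For the ETS/GABPA letters CCGGAAG they were 36.8%, 19.2% and 9.93%, for the YY1 letters AAGATGGC 17.6%, 5.06% and 3.19%, and for the cyclic AMP response element TGACGTCA 2.94%, 3.43% and 2.03%. In the 250 bases before the start alone, the shares of members, genes tested and all genes were 25%, 15% and 7.83% for ETS/GABPA, 14.7%, 8.87% and 4.23% for NRF1, and 5.88%, 2.35% and 1.83% for YY1. Of the 68 members, 42 held NRF1, ETS/GABPA or YY1 letters and 8 held at least 2 of these. The 27 members with CCAAT had a median log2 fold change of -0.03 and the 41 without it of 0.0066, and each set held 2 of the 4 genes that fell. The 13 members with NRF1 letters had a median of -0.08 and the 55 without them of 0.0098, and here too each set held 2 of the 4.

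**Figure D5:**
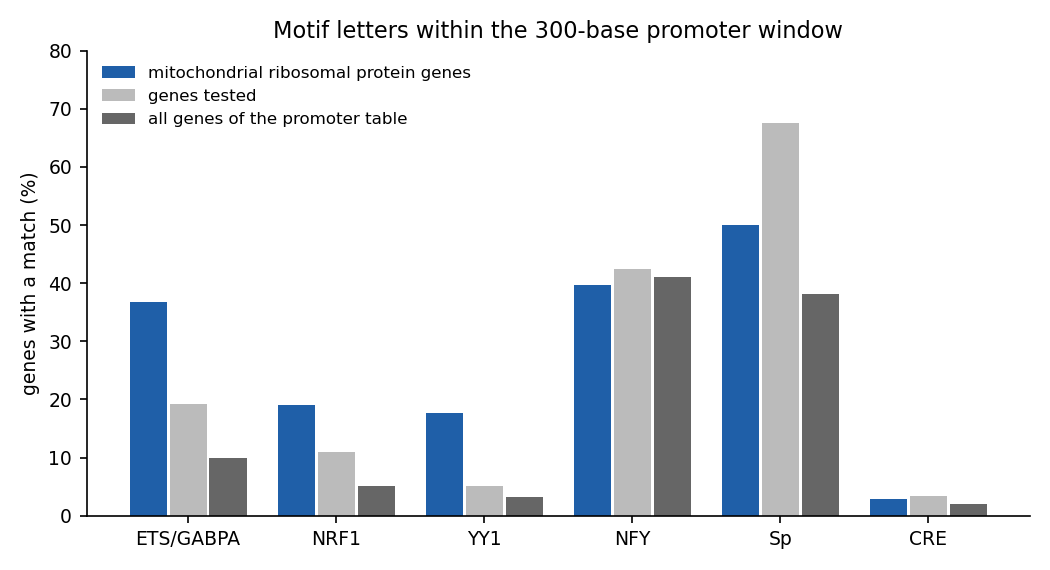
Share of genes (y axis, percent, from 0) whose 300-base promoter window holds the letters of 6 motifs (x axis), for 68 members, for the genes tested and for all genes of the promoter table. The members' share is above both others for ETS/GABPA, NRF1 and YY1 and near them for NFY, the shortest motif at 5 letters.

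The 250 bases before the start are shown for the 4 genes that fell, and for *Mrpl12* as the large subunit gene with the highest level per length. Capitals mark motif letters. *Mrps21* (chr3:95871515-95871764, minus strand) and *Mrpl12* (chr11:120484387-120484636, plus strand) hold NRF1 letters, read on the opposite strand in both. *Mrpl16* (chr19:11770165-11770414, plus strand) holds TGACGTCA. *Mrpl42* (chr10:95501950-95502199, minus strand) and *Mrps9* (chr1:42850983-42851232, plus strand) hold CCAAT, which reads ATTGG in *Mrpl42*, and the Sp box, which reads CCGCCC in both. Matches that reach past the start are not shown, namely NRF1 letters across the start of *Mrps9*, ETS/GABPA letters in *Mrps21* and YY1 letters in *Mrpl42*. A match describes these letters and shows no binding.
Mrps21: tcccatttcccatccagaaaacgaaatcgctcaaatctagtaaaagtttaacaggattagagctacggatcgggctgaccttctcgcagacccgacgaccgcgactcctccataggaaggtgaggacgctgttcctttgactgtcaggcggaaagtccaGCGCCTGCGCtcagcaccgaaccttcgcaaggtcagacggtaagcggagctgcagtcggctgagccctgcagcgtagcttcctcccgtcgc
Mrpl16: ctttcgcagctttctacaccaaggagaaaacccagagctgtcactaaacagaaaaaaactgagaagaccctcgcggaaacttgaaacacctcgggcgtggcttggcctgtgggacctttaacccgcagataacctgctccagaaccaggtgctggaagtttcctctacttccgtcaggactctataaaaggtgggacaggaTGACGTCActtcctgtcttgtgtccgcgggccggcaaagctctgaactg
Mrpl42: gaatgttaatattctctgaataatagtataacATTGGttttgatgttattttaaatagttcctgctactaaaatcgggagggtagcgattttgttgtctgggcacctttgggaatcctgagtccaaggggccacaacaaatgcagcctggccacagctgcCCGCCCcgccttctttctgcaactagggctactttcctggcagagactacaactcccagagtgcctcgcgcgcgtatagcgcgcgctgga
Mrps9: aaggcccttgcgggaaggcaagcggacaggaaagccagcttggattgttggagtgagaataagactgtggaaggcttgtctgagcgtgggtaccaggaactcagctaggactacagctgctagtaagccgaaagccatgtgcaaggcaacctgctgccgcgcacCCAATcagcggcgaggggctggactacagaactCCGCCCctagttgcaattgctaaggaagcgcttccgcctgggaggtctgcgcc
Mrpl12: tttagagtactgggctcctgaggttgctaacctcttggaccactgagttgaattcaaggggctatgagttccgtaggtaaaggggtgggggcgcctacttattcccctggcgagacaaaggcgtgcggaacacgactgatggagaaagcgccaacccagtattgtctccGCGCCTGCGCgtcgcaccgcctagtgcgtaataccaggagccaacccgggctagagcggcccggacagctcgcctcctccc

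Many members start close to another gene on the opposite strand. For 33 of 77 members (42.9%), another protein-coding gene on the opposite strand started within 1000 bases of the member's start. That was so for 2024 of 13020 protein-coding genes tested (15.5%). None of the 4 genes that fell was among these members. Such head-to-head neighbours started either upstream of the member or inside it. All neighbours of the latter kind have exons that overlap those of the member. Among these pairs are *Mrpl44* and *Wdfy1*, *Mrpl36* and *Ndufs6*, *Mrps7* and *Gga3*, and *Mrpl46* and *Mrps11*. Of 30 such neighbours measured, 6 rose (20%, beside 14.6% of all genes) and 1 fell (3.33%, beside 15.7%), and none of the members they face was called. *Ppp1r10*, facing *Mrps18b*, rose from 43.8 ± 3.44 to 59.9 ± 2.26 CPM (0.46, adjusted p = 6.1e-07), where *Mrps18b* gave 0.05. *Wdfy1*, facing *Mrpl44*, rose from 35.3 ± 0.879 to 46.2 ± 1.86 CPM (0.39, adjusted p = 5.6e-06), where *Mrpl44* gave -0.02. *Apba3*, facing *Mrpl54*, rose by 0.23, where *Mrpl54* gave -0.11 and was not called. The other measured neighbours of members named by the rule were not called. They were *Tcp1* (0.0010, facing *Mrpl18*), *Rab6a* (-0.07, facing *Mrpl48*), *Ptcd2* (0.09, facing *Mrps27*), *Helq* (0.23, facing *Mrps18c*) and *Eme2* (-0.12, facing *Mrps34*). Outside the rule for named genes, *Zfp661* (0.86, facing *Mrps5*), *Pnpla7* (0.21, facing *Mrpl41*) and *Gga3* (0.19, facing *Mrps7*) rose and the complex I gene *Ndufs6* (-0.25, facing *Mrpl36*) fell. They were named after their values were seen. The differences within pairs were not tested. *Mrpl46* and *Mrps11* face each other and gave 0.01 and -0.03.

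Exons of 32 of 77 members overlap those of another annotated gene, 27 on the opposite strand and 8 on the same strand, and 5 annotated pseudogenes are named after a member. Whether the authors' counting used strand is not given in the sources used here, so reads of such pairs may have been shared or dropped.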

How the data were processed

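Total RNA was sequenced in paired ends after ribosomal RNA removal, in 3 WT and 3 KO heart libraries. Per the submitters' processing notes, cutadapt 1.18, HISAT2, StringTie and mm10 were used. The authors deposited unnormalized read counts for each gene symbol. The counting program and its use of strand are not given in the sources used here. The same table holds the authors' edgeR log2 fold changes, mean log2 CPM, p-values and adjusted values, which were not used. Columns carry the genotype without replicate numbers, so libraries are named a to c in column order. Depth was 15567624 to 19875546 counts.

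The analysis used edgeR 4.0.16 in R 4.3.3. Of 13809 genes, 5 were left out by filterByExpr. The remaining 13804 were scaled with TMM and compared between genotypes, with no other term, by the quasi-likelihood test, and p-values were adjusted over all genes by the Benjamini-Hochberg method. CPM are TMM-scaled. Centred log2 levels used a pseudocount of 0.5 CPM. The p-values measure the spread between these libraries, which the study calls biological replicates. The fit was tested on simulated data with 200 genes changed. It called 60% of those changed 1.25-fold and 88.5% of those changed 1.5-fold, with 9 and 10 false calls. With no gene changed it made 0 calls. Smaller changes were not simulated. The changed genes were drawn from all genes and made up 200 of 13802, whereas 30.3% of genes were called in the data. The simulated rates may therefore not hold for the members. Gene positions and lengths are from GENCODE vM21 (GRCm38), to which 13299 symbols matched directly and 415 through RefSeq synonyms; 95 did not match. Promoters are from RefSeq (GRCm38.p6).

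Alternatives were RLE size factors, TMM without *Rn45s*, a minimum of 10 counts per library, no filter, removal of X and Y genes, a gene length offset, edgeR's exact test, voom of limma 3.58.1, DESeq2 1.42.0 and each library left out in turn. The rule for named genes took members past the threshold, the 5 highest and 3 lowest WT levels per length in each subunit, 11 members with roles of their own, called genes of the pathway lists (at most 6 per direction and list) and head-to-head neighbours of named members. Other genes named were chosen after their values were seen. Members and lists were chosen with earlier results of these data known. Python 3.11.15 with matplotlib 3.10.9 drew the figures.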

Additional observations from a re-analysis of the deposited data

How the results depend on the processing

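Across the 9 alternatives that kept all libraries, 3 (DESeq2) to 5 (gene length offset, exact test) members fell, and 0 rose except with a minimum of 10 counts per library (1) and the exact test (2). With 1 library left out, 2 (without KO a, and without KO c) to 6 (without WT a) fell and 0 to 2 (without WT c) rose. *Mrps21* was called under all 15 alternatives, *Mrpl16* under 14, *Mrpl42* under 12 and *Mrps9* under 11. The members' median log2 fold change stayed between 0.0044 and 0.0087, and between -0.01 and 0.02 with 1 library left out. *Mrps5* went from 0.06 to -0.012 without WT a and to 0.153 without WT c. Of 49 translation factor and assembly genes, 10 rose, 6 with DESeq2 and 5 to 9 with 1 library left out (5 without KO a, 6 without WT b), and 0 fell under any alternative. Over all genes, 2011 rose, while 1362 did with DESeq2, 1547 without KO a and 1581 without WT b. The cause of these changes was not tested. No paired analysis was possible because replicate numbers are missing from the count columns. With 3 libraries per genotype, the members' log2 fold changes had standard errors of 0.0459 to 0.11.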
